A study of Mus musculus with 6 samples.

Results

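Lysosomal genes were examined in mouse bone marrow-derived macrophages that had been kept in medium conditioned by tumour cells. The set held 49 genes of the 55421 listed, chosen by name for what their products do in the lysosome. Earlier results of these data were known when the set was chosen. Each of the 49 genes was found in the deposited table under its GRCm38 symbol. By role these were 9 proteases, 10 glycosidases, 4 sulfatases, 8 lipid enzymes and their activator proteins, 8 membrane, cholesterol export and other lumenal proteins, 7 subunits of the vacuolar proton pump (V-ATPase), and the 3 transcription factor genes Tfeb, Tfe3 and Mitf. The cells carried the genotype label WT; the sources used here give neither strain nor age nor the number of animals. Of 6 wells, 3 were left in RPMI-1640 with 10% serum, penicillin/streptomycin and 20 ng/mL macrophage colony-stimulating factor (M-CSF), and 3 received a mixture of which 50% was that medium and 50% was medium taken from LL-2, a tumour line of Lewis lung carcinoma. Polyadenylated RNA was sequenced from each well after 24 h. No medium conditioned by another cell type was analysed here, so tumour-cell products, conditioning as such and dilution of the fresh medium cannot be told apart.

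Lysosomes are acidic organelles in which hydrolases break down proteins, glycans and lipids taken up by endocytosis, phagocytosis or autophagy. The V-ATPase acidifies the lumen, membrane glycoproteins such as the LAMP proteins line it, and most soluble hydrolases reach it by mannose 6-phosphate tags. Tfeb, Tfe3 and Mitf are related basic helix-loop-helix factors that bind a palindromic element, the CLEAR motif, near the start of many of these genes, and macrophages are among the cells richest in lysosomes.

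Total counts ran from 24179548 to 25916709 in untreated wells and from 28447825 to 30040682 in conditioned-medium wells. Levels are CPM, the counts of a gene per 1e6 counts of its library, scaled by TMM, which sets most genes level between libraries, and differences are log2 fold changes, conditioned medium minus untreated, from edgeR's quasi-likelihood test with Benjamini-Hochberg adjustment over 13853 tested genes and a threshold of 0.05. Of 8 macrophage markers, 3 rose (Csf1r, Itgam, Mertk) and 3 fell (Adgre1, Fcgr1, Aif1); Lyz2, the macrophage lysozyme gene, took 4.14% to 5.27% of counts. The wells numbered 3 stood apart from the others of their group. Chi-square per degree of freedom, which is near 1 for sampling noise alone, was 3.89 and 3.99 between wells 1 and 2 and 10.5 to 15 between each of these and well 3.

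All 49 genes passed the filter on low counts. In conditioned medium 27 of them fell (55.1%) and 5 rose (10.2%), while of all tested genes 15.2% fell and 12.6% rose. The groups did not overlap for 34 genes that were lower and 6 that were higher, against 21.6% and 21.2% of all tested genes. Calls and lack of overlap depend on level as well as on change. The median untreated level was 493 CPM for the 49 genes and 17.45 CPM over all tested genes. Genes of like level were not compared. The log2 fold change was below 0 for 37 genes, against 48% of all tested genes, and its median was -0.20 for the lysosomal genes and 0.01 over all tested genes. Most of the changes were small: the log2 fold changes ran from -1.04 for Arsb to 0.47 for Sgsh, and edgeR's glmTreat, which tests for a change beyond 1.5-fold, called 2 genes, Arsb and Lipa, both lower (3.49% of all tested genes were called by it, 2.25% as lower). By estimate alone, 6 of the genes that fell did so beyond 1.5-fold, against 6.45% of all tested genes. With the replicate number as a block, 30 fell and 5 rose, against 36.3% of all tested genes changed. Without scaling beyond the total count, 23 fell and 8 rose, so that 25.8% of the calls were rises, against 15.6% with TMM; of all tested genes 12.3% fell and 19.2% rose in that fit. Without both wells numbered 3, 28 fell and 7 rose, against 15.8% and 13.3% of the 14020 genes tested then. As a share of all counts the 49 genes took 7.24% to 7.49% in the untreated wells and 6.23% to 6.68% in the conditioned-medium wells, and the ranges do not overlap. In such bulk samples, fewer cells of a type and less RNA per cell cannot be told apart.

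**Figure D1:**
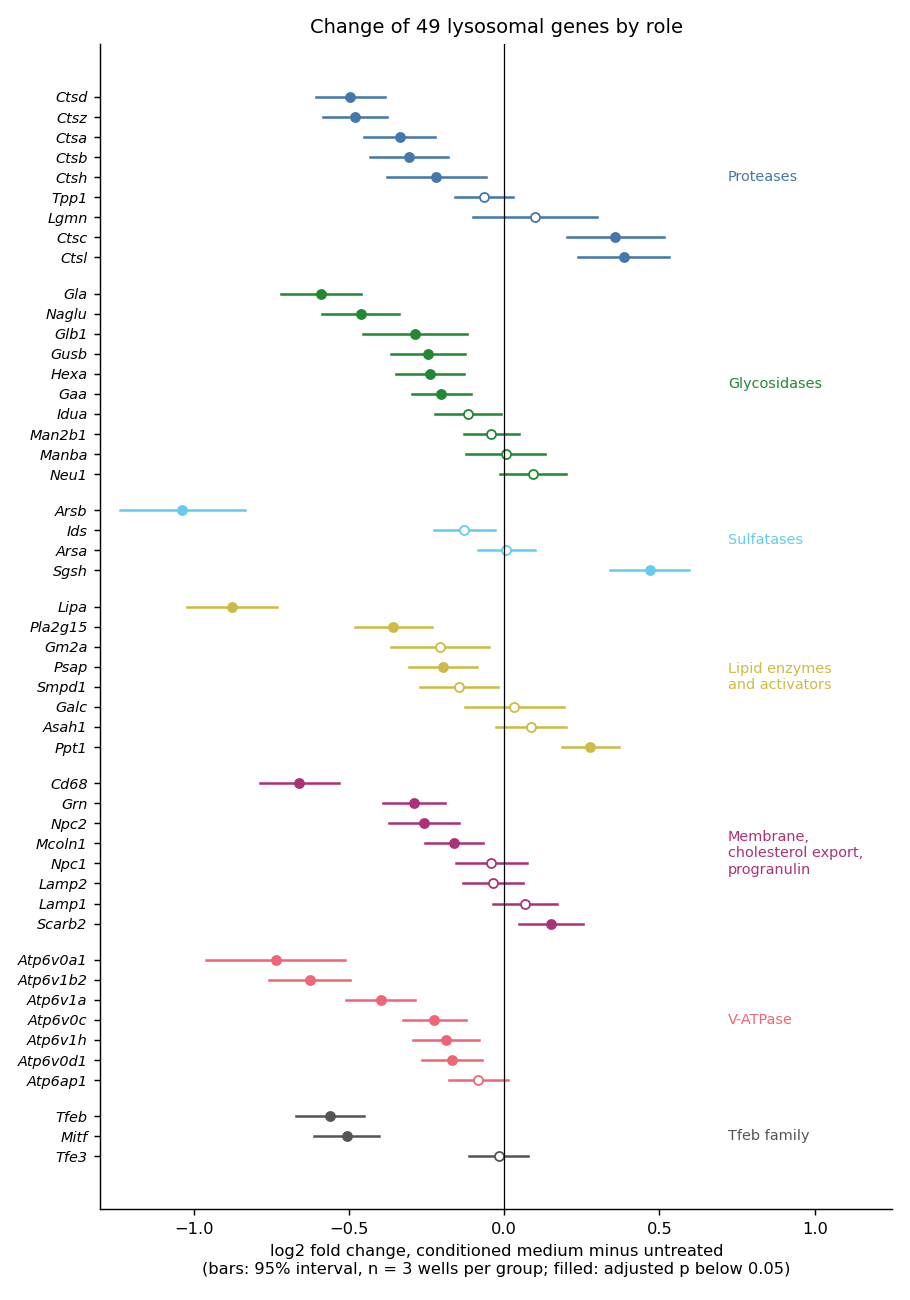
Log2 fold change (x axis, conditioned medium minus untreated) of each of the 49 lysosomal genes, grouped by role, with its 95% interval from the edgeR fit on 3 wells per group; filled points passed the adjusted threshold of 0.05. Most points lie left of 0, the V-ATPase genes without exception, while Ctsc, Ctsl, Sgsh, Ppt1 and Scarb2 lie to the right with filled points.

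Of the transcription factors, Tfeb and Mitf fell and Tfe3 did not pass the test. Tfeb (ENSMUSG00000023990, chromosome 17, 47737030 to 47792419, GRCm38) stood at 76.8, 74.1 and 71.1 CPM in the untreated wells and 50.1, 48.6 and 51.8 CPM in conditioned medium. Each conditioned-medium well lay below each untreated well, and the log2 fold change was -0.56 (SE 0.05, adjusted p = 3.98e-05). Mitf, which is best known for its role in melanocytes and osteoclasts, went from 84.1, 84.7 and 78.4 CPM to 57.2, 57.4 and 59.3 CPM (log2 fold change -0.51, SE 0.05, adjusted p = 5.89e-05). Its wells likewise did not overlap, and wells 3, the lowest untreated and the highest treated, had the smallest difference for both genes. Tfe3 stood at 158, 161 and 166 CPM untreated and 160, 155 and 163 CPM in conditioned medium, which overlap; its log2 fold change of -0.02 had a 95% interval of -0.11 to 0.08. Per kilobase of exon the untreated levels of the 3 genes were close, at 13.1 CPM for Tfeb, 17.4 for Tfe3 and 13.3 for Mitf, well below the median of the 9 proteases, 310 CPM per kilobase. The counts are of whole genes, so the promoter variants of Mitf and Tfeb cannot be told apart.

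Promoter sequences from RefSeq (GRCm38.p6), 250 bases before to 50 after each start, were found for 43 of the 49 genes. They were searched on both strands for the centre of the CLEAR motif, TCACGTGA, and for the E-box CACGTG that lies within it; each reads the same on both strands. The CLEAR centre was present in 6 of 43 genes (14.0%), against 2.19% of 10060 tested genes with a promoter, counting a gene if any of its promoters held it. Counted by promoter, it was present in 11.3% of the 53 promoters of these genes, against 0.974% of all 32851 promoters. Another promoter of Ctsa, not shown, held none. These were Ctsd, Ctsa, Gla, Atp6v1a, Atp6v0d1 and Mcoln1. All 6 fell in conditioned medium, and of all 43 genes 23 fell. The calls of Atp6v0d1 and Mcoln1 did not hold under every alternative. Arsb and Lipa, which had the largest falls of the set, held no CLEAR centre. The 6 promoters are shown for the letters that the Tfeb family binds, and a link of these letters to the falls was not tested. Capitals mark each CLEAR centre or E-box, and the sequences read 5′ to 3′ along the gene's strand.
Ctsd (chr7:142387778-142388077, minus strand): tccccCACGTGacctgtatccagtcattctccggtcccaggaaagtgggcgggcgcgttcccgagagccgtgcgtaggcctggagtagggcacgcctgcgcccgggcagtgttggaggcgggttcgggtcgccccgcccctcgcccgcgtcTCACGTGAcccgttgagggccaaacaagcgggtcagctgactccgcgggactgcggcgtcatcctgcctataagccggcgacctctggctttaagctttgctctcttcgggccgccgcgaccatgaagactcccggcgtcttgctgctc
Ctsa (chr2:164833523-164833822, plus strand): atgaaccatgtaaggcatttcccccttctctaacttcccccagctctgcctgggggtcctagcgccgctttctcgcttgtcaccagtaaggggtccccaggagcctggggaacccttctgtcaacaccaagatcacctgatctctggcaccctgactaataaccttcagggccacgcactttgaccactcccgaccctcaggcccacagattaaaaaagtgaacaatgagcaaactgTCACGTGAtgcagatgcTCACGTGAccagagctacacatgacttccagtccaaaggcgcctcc
Gla (chrX:134600956-134601255, minus strand): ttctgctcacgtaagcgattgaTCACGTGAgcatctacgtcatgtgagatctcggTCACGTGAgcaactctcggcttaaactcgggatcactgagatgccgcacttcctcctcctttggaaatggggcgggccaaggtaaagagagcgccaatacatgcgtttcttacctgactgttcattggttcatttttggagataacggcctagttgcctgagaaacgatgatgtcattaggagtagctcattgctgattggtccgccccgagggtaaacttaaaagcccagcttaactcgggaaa
Atp6v1a (chr16:44139210-44139509, minus strand): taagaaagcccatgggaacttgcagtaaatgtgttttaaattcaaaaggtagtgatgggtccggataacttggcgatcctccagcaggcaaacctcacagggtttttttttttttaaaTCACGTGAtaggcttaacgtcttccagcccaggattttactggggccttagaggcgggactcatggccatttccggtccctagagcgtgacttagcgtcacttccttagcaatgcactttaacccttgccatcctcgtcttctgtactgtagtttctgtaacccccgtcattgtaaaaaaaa
Atp6v0d1 (chr8:105566015-105566314, minus strand): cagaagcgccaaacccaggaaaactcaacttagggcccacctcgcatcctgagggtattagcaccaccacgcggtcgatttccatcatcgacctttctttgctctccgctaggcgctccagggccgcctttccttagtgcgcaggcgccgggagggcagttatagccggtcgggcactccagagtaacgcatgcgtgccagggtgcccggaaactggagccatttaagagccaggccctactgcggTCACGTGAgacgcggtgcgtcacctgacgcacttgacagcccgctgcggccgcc
Mcoln1 (chr8:3500269-3500568, plus strand): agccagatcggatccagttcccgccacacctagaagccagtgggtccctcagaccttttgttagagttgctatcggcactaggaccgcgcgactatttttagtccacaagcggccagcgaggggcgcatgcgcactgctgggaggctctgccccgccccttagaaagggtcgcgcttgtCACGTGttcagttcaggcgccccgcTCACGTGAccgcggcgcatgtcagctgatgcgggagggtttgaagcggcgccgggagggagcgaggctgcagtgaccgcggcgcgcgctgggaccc

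In Ctsd the CLEAR centre begins 99 bases before the start, in Atp6v1a 132, in Mcoln1 46 and in Atp6v0d1 4. Gla holds it at 228 and 195 bases before the start, and Ctsa at 13 before and 4 after. Among tested genes outside the set, 14.0% of 214 with a CLEAR centre in the promoter fell, and 16.3% of 9802 without it; this difference was not tested. An E-box, within a CLEAR centre or outside it, was present in 14 of the 43 genes (32.6%), against 11.7% of tested genes. Of those 14, 9 fell, 2 rose (Sgsh and Ctsl) and 3 did not pass, while of all 43 genes 23 fell. The 9 were the 6 above with Gaa, Glb1 and Naglu. The 3 included Lamp1, whose promoter holds 4 copies. A match in these windows is a description and not a binding site, and binding was not measured.

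Among the 9 proteases, 5 fell and 2 rose, against 15.2% and 12.6% of all tested genes. The most abundant was Ctsb, encoding the cysteine protease cathepsin B, at 18270, 18900 and 18010 CPM in the untreated wells and 14860, 15720 and 14070 CPM in conditioned medium (log2 fold change -0.31, SE 0.06, adjusted p = 0.00308). It made up 56.3% of the summed level of the proteases, and its 3 conditioned-medium wells all lay below the untreated ones. Ctsd, encoding the aspartic protease cathepsin D (ENSMUSG00000007891, chromosome 7, 142375911 to 142388038), went from 6885, 7005 and 7240 CPM to 4875, 5213 and 4902 CPM, and its log2 fold change was -0.50 (SE 0.05, adjusted p = 9.28e-05). Ctsz, encoding the carboxypeptidase cathepsin Z, went from 1816, 1853 and 1951 CPM to 1324, 1370 and 1338 CPM. Ctsd fell by 29.1% and Ctsz fell by 28.3%, and for both genes the gap between the groups exceeded the spread within either. Ctsa, encoding the carboxypeptidase that also stabilises beta-galactosidase and sialidase, had a log2 fold change of -0.34 (adjusted p = 0.00107); it shares 10.5% of its exon bases with Pltp on the opposite strand, which is also expressed, so its count is uncertain. Ctsh, encoding an aminopeptidase, passed narrowly, with 528, 525 and 494 CPM against 462, 475 and 393 CPM and an adjusted p of 0.0468. That call was lost without untreated replicate 1 (0.127), untreated replicate 2 (0.14), conditioned-medium replicate 1 (0.0828) or conditioned-medium replicate 3 (0.0735), and without scaling (0.121).

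The cathepsin genes that rose were Ctsl and Ctsc. Ctsl, encoding the cysteine endopeptidase cathepsin L, stood at 619, 614 and 563 CPM untreated and 805, 826 and 713 CPM in conditioned medium (log2 fold change 0.38, SE 0.06, adjusted p = 0.00193). Ctsc, encoding the dipeptidyl peptidase that activates granule serine proteases, went from 498, 546 and 562 CPM to 700, 735 and 624 CPM (log2 fold change 0.36, SE 0.07, adjusted p = 0.00415). In both, every conditioned-medium well lay above every untreated well, and well 3 was the lowest of the conditioned-medium wells. The log2 difference of Ctsc between wells of the same number was 0.49, 0.43 and 0.15. Lgmn, encoding the asparaginyl endopeptidase legumain, overlapped between groups and had a log2 fold change of 0.10 with an interval of -0.10 to 0.30; it passed as higher without both wells numbered 3 (adjusted p = 0.0349). Tpp1, encoding a peptidase of the neuronal ceroid lipofuscinosis genes, had a log2 fold change of -0.07 (interval -0.16 to 0.03).

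**Figure D2:**
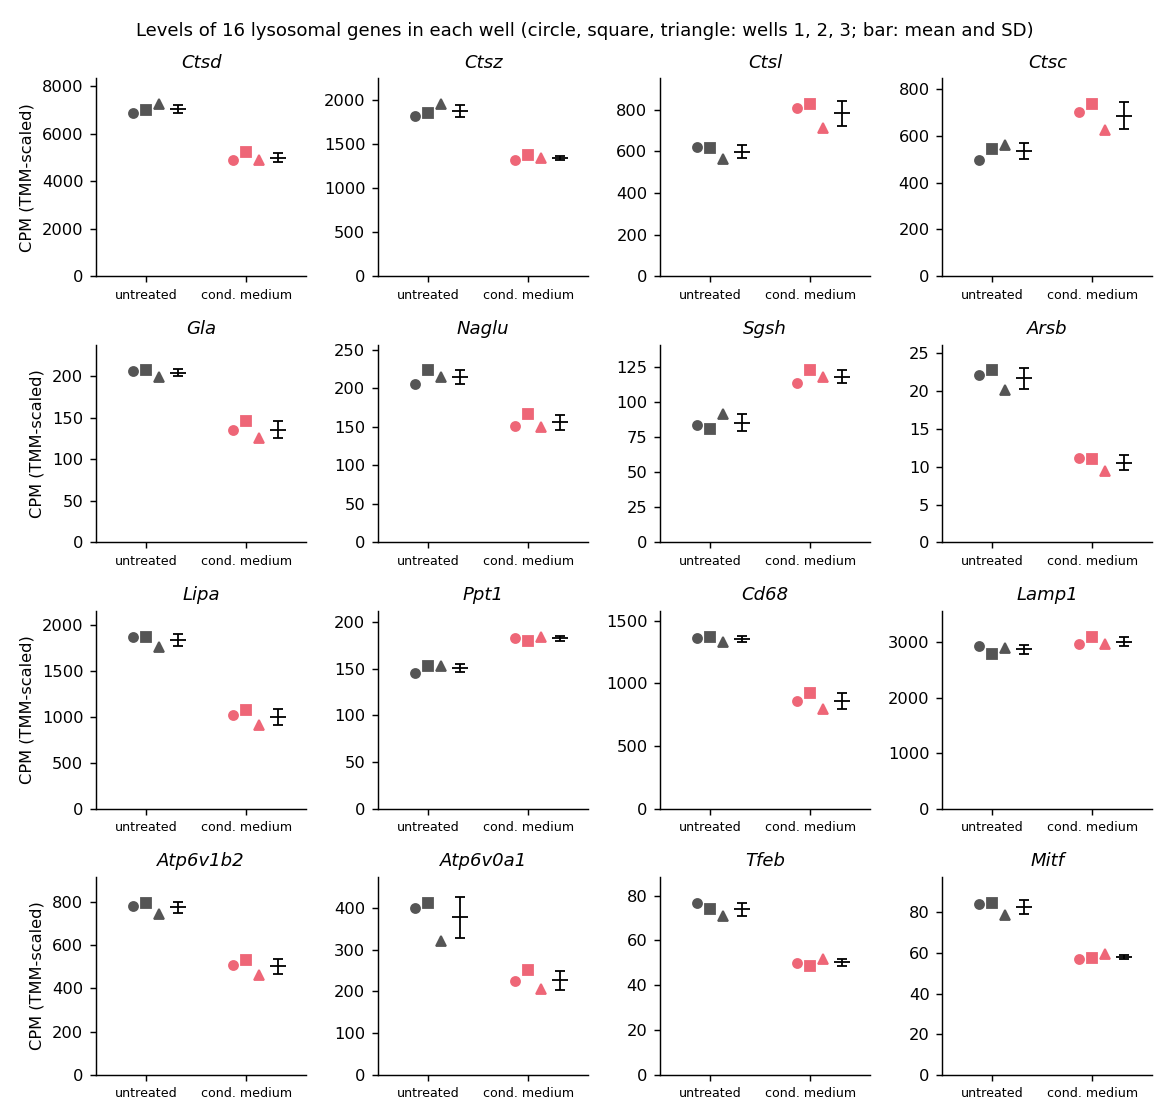
TMM-scaled CPM (y axis from 0, a separate scale for each gene) of 16 lysosomal genes in each well of the untreated and conditioned-medium groups, with mean and SD beside the points (n = 3). The groups do not overlap in any panel, and Ctsl, Ctsc, Sgsh and Ppt1 go up while Lipa, Arsb, Cd68, Tfeb and Mitf go down; for Lamp1, whose wells lie at 2779 to 3101, the gap is small and the test was not passed.

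Of the 10 glycosidases, 6 fell and 0 rose by edgeR, against 15.2% and 12.6% of all tested genes. At an unadjusted p under 0.05 also 0 rose, and 0 by DESeq2. Gla, encoding alpha-galactosidase A, which clears globotriaosylceramide and is mutated in Fabry disease (chromosome X, 134588149 to 134601125), had the largest fall of the group. It stood at 207, 207 and 199 CPM untreated and 135, 146 and 126 CPM in conditioned medium (log2 fold change -0.59, SE 0.06, adjusted p = 7.7e-05). Naglu, encoding an N-acetylglucosaminidase that degrades heparan sulfate, went from 206, 223 and 215 CPM to 151, 167 and 150 CPM (log2 fold change -0.46, adjusted p = 0.000274). Both genes were lower in every conditioned-medium well. Glb1 (beta-galactosidase), Gusb (beta-glucuronidase), Hexa (the alpha subunit of beta-hexosaminidase) and Gaa (the glycogen-degrading acid alpha-glucosidase) fell less, with log2 fold changes of -0.29, -0.24, -0.24 and -0.20. The Glb1 call was lost without conditioned-medium replicate 1 (adjusted p = 0.0698). Idua, Man2b1, Manba and Neu1 did not pass. Their log2 fold changes were -0.12, -0.04, 0.01 and 0.09, and the outermost bounds of their intervals were -0.22 for Idua and 0.20 for Neu1, the sialidase gene. Neu1 stood at 129, 134 and 142 CPM untreated and 141, 146 and 146 CPM in conditioned medium, and passed as higher without scaling (adjusted p = 0.0235).

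The 4 sulfatases held both the largest fall and the largest rise of the whole set. Arsb, encoding arylsulfatase B, which acts on dermatan and chondroitin sulfate (ENSMUSG00000042082, chromosome 13, 93771630 to 93943016), stood at 22.2, 22.8 and 20.1 CPM untreated and 11.2, 11.1 and 9.40 CPM in conditioned medium. The level fell by 51.2% (log2 fold change -1.04, SE 0.09, adjusted p = 3.9e-05), and it was also called beyond 1.5-fold (adjusted p = 0.00369 by glmTreat). Per kilobase of exon Arsb had the lowest untreated level of the 49 genes, 3.59 CPM. Sgsh, encoding the heparan sulfamidase, moved the other way, from 83.6, 80.7 and 91.7 CPM to 114, 122 and 118 CPM (log2 fold change 0.47, SE 0.06, adjusted p = 0.000285). Sgsh acts on heparan sulfate, as does Naglu, which fell. Arsa, the sulfatide-degrading arylsulfatase A gene, stood at 54.9 to 56.1 CPM in all 6 wells, with a log2 fold change of 0.01 and an interval of -0.08 to 0.10. Ids, the iduronate sulfatase gene, was lower in each conditioned-medium well but missed the threshold (log2 fold change -0.13, adjusted p = 0.0579), and passed with the replicate block (0.0356). The summed level of the sulfatases was 251 to 262 CPM untreated and 265 to 275 CPM in conditioned medium, the only role whose sum was higher in conditioned medium.

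Among the 8 lipid enzymes and activators, 3 fell and 1 rose, against 15.2% and 12.6% of all tested genes. Lipa, encoding the acid lipase that hydrolyses cholesteryl esters and triglycerides of lipoproteins (ENSMUSG00000024781, chromosome 19, 34492318 to 34527474), stood at 1867, 1873 and 1762 CPM untreated and 1017, 1072 and 908 CPM in conditioned medium. It was lower in every conditioned-medium well and fell by 45.5% (log2 fold change -0.88, SE 0.06, adjusted p = 1.66e-05), and was called beyond 1.5-fold (adjusted p = 0.00666 by glmTreat). Pla2g15, a lysosomal phospholipase gene, went from 323, 312 and 302 CPM to 246, 259 and 228 CPM (log2 fold change -0.36, adjusted p = 0.00118). Psap, which encodes the precursor of the saposins that help sphingolipid hydrolases reach their substrates, was the most abundant lysosomal transcript per length, at 7733 CPM per kilobase of exon. It stood at 21370, 20900 and 21390 CPM untreated and 18570, 19000 and 17960 CPM in conditioned medium (log2 fold change -0.20, SE 0.05, adjusted p = 0.014). Its call was lost without untreated replicate 1 (0.0643), untreated replicate 2 (0.0537) or conditioned-medium replicate 1 (0.0647). Ppt1, encoding a thioesterase that removes palmitate from proteins, rose from 146, 153 and 153 CPM to 184, 180 and 185 CPM (log2 fold change 0.28, SE 0.04, adjusted p = 0.00099). It shares 3.51% of its exon bases with Cap1 on the opposite strand, which held 112248 counts against 27459 of Ppt1 and fell, so the count of Ppt1 is uncertain.

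The remaining lipid genes did not pass. Gm2a, encoding the activator that presents ganglioside to hexosaminidase, had a log2 fold change of -0.21 and an adjusted p of 0.0537, and Smpd1, the acid sphingomyelinase gene, one of -0.15 and 0.0838. With the replicate block both fell (adjusted p = 0.000757 and 0.0378), so that 5 of the 8 genes were called lower. That fit called 19.3% of all tested genes lower. Gm2a also passed by DESeq2 (0.016), without the filter on low counts (0.0193), without both wells numbered 3 (0.0101), without untreated replicate 3 (0.0374) and without conditioned-medium replicate 2 (0.0241). Galc, for galactosylceramide, overlapped between groups with a log2 fold change of 0.03 (interval -0.13 to 0.19), and Asah1, for ceramide, had one of 0.09 (interval -0.03 to 0.20). Asah1 passed as higher without scaling (adjusted p = 0.0471) and without both wells numbered 3 (0.0212).

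Of the 8 membrane, cholesterol export and lumenal proteins, 4 fell and 1 rose, against 15.2% and 12.6% of all tested genes. The LAMP genes did not pass the test. Cd68, encoding the macrophage glycoprotein macrosialin, a relative of the LAMP proteins (ENSMUSG00000018774, chromosome 11, 69664213 to 69666153), stood at 1366, 1374 and 1329 CPM untreated and 862, 920 and 796 CPM in conditioned medium (log2 fold change -0.66, SE 0.06, adjusted p = 3.93e-05). Lamp1 stood at 2935, 2779 and 2904 CPM against 2965, 3101 and 2963 CPM. The Lamp1 groups did not overlap, but the difference of 0.07 on the log2 scale was small beside its interval (-0.04 to 0.17; adjusted p = 0.322, and 0.0449 without scaling). Lamp2 had a log2 fold change of -0.04 (interval -0.13 to 0.06). Per kilobase of exon the untreated levels of Cd68 and Lamp1 were nearly equal, 1079 and 1074 CPM. Grn, encoding progranulin, a lumenal protein needed for hydrolase function, went from 2174, 2290 and 2318 CPM to 1834, 1844 and 1865 CPM (log2 fold change -0.29, SE 0.04, adjusted p = 0.00114).

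The pair of genes for cholesterol export behaved unequally. Npc2, the soluble carrier, went from 1818, 1828 and 1992 CPM to 1551, 1553 and 1606 CPM (log2 fold change -0.26, SE 0.05, adjusted p = 0.00415). Npc1, the membrane partner that takes cholesterol over from it, overlapped between groups at 352 to 371 CPM and 331 to 371 CPM (log2 fold change -0.04, interval -0.16 to 0.07). Whether the changes of Npc1 and Npc2 differ was not tested. Scarb2, encoding the receptor that carries glucocerebrosidase to lysosomes, rose from 293, 288 and 305 CPM to 330, 339 and 316 CPM (log2 fold change 0.15, adjusted p = 0.0347). Its call was lost without untreated replicate 1 (0.104), untreated replicate 2 (0.141), conditioned-medium replicate 1 (0.118) or conditioned-medium replicate 2 (0.115). Mcoln1, the lysosomal calcium channel gene whose promoter is shown above, fell from 74.7, 74.9 and 72.2 CPM to 67.1, 64.5 and 66.8 CPM (log2 fold change -0.16, adjusted p = 0.0188). It was lost without untreated replicate 1 (0.0612), untreated replicate 2 (0.0725), conditioned-medium replicate 1 (0.0527) or conditioned-medium replicate 2 (0.0605), without scaling (0.113) and without the filter (0.0836).

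All 7 V-ATPase genes had negative log2 fold changes, none overlapped between groups, and 6 fell. By edgeR, at an unadjusted p under 0.05 or by DESeq2, 0 rose. Of all tested genes 48% were below 0, 21.6% were lower without overlap and 15.2% fell. The pump has a cytosolic V1 sector, which hydrolyses ATP, and a membrane V0 sector, which carries protons. Atp6v0a1, a V0 subunit a isoform gene, had the largest fall, from 400, 413 and 322 CPM to 226, 251 and 205 CPM (log2 fold change -0.74, SE 0.10, adjusted p = 0.000567). Well 3 was the lowest of its group both times, and the untreated SD of 49.1 CPM was the widest among these 7 genes. Atp6v1b2, the V1 subunit B gene of most tissues (chromosome 8, 69088646 to 69113711), went from 783, 797 and 745 CPM to 509, 534 and 465 CPM (log2 fold change -0.63, SE 0.06, adjusted p = 6.08e-05). Atp6v1a, the catalytic V1 subunit A gene, went from 686, 678 and 641 CPM to 508, 530 and 484 CPM (log2 fold change -0.40, SE 0.05, adjusted p = 0.000362).

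The other pump genes fell less. Atp6v0c, for the proteolipid ring of V0, went from 744, 767 and 733 CPM to 632, 667 and 622 CPM (log2 fold change -0.23, adjusted p = 0.00506). Atp6v1h, a regulatory V1 subunit gene, and Atp6v0d1, the V0 subunit d gene of most tissues, had log2 fold changes of -0.19 and -0.17 (adjusted p = 0.0167 and 0.0165). Both calls were lost without scaling (0.0691 and 0.0591), that of Atp6v1h also without untreated replicate 1 (0.0624) and that of Atp6v0d1 without untreated replicate 2 (0.0534). Atp6ap1, an assembly factor of the pump, had a log2 fold change of -0.08 (interval -0.18 to 0.01) and did not pass. The summed level of the 7 genes was 3298 to 3490 CPM in the untreated wells and 2528 to 2766 CPM in conditioned medium, a ratio of 0.778, the lowest of the 7 roles.

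**Figure D3:**
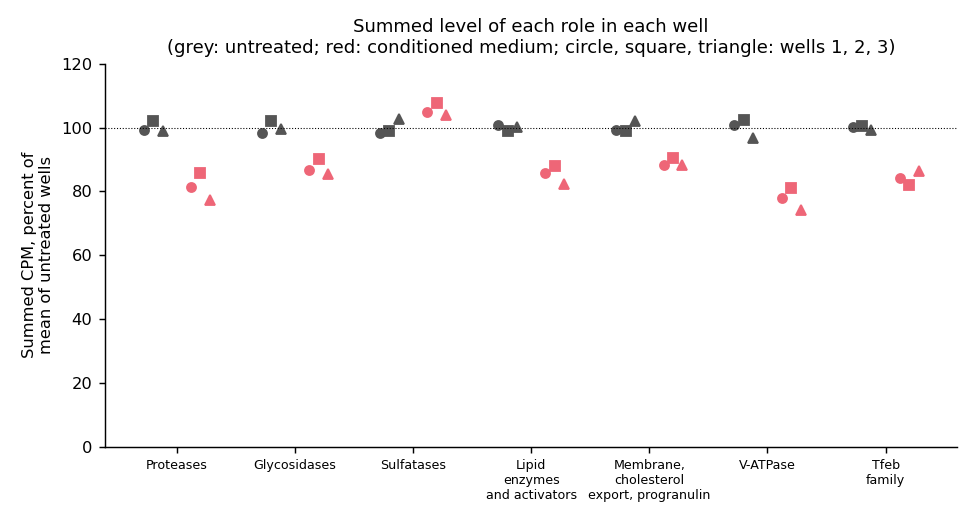
Summed TMM-scaled CPM of the genes of each role in each well, as a percent of the mean of the 3 untreated wells (y axis from 0; markers give the well number). Conditioned-medium wells lie below the untreated wells for every role but the sulfatases, where Sgsh leads the sum.

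By role, the ratio of summed levels was 0.815 for proteases, 0.842 for the Tfeb family, 0.854 for lipid enzymes and activators, 0.874 for glycosidases, 0.889 for the membrane and other lumenal proteins and 1.06 for sulfatases. Such a sum follows its most abundant gene: Psap made up 86.3% of the lipid sum. The median log2 fold change, which weighs genes equally, was -0.22 for proteases, -0.22 for glycosidases, -0.23 for the V-ATPase, -0.17 for lipid enzymes and activators, -0.10 for the membrane group, -0.06 for sulfatases and -0.51 for the 3 Tfeb family genes. Whether the roles differ from each other was not tested. Level and direction can be set side by side: among the 6 most abundant genes per kilobase, Psap, Ctsb, Ctsd, Ctsz and Cd68 fell and Lamp1 did not pass, while the rising genes lay between 19.3 CPM per kilobase for Sgsh and 92.2 for Ctsl. Genes that shared exon bases with another listed gene numbered 17. The largest shares were 34.4% for Ctsd (with Gm49369, same strand), 26.8% for Ctsl (Gm47123, opposite strand) and 21.6% for Sgsh (Card14, opposite strand). Gm49369 and Gm47123 held 0 counts and Card14 held 617. The counts and levels per kilobase of these genes are thus uncertain too.

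**Figure D4:**
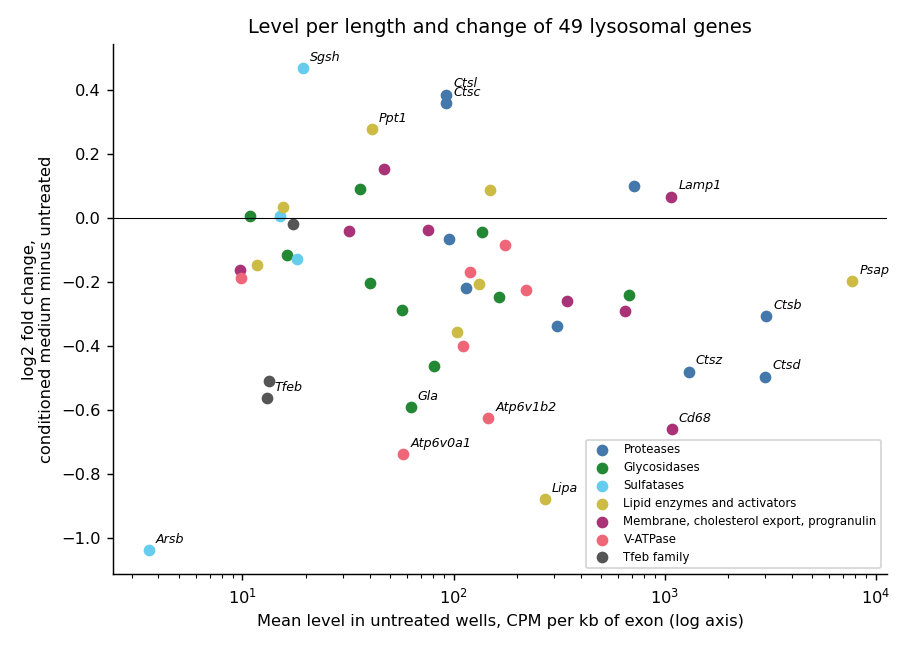
Mean untreated level per kilobase of exon (x axis, log scale, CPM per kb) against log2 fold change (y axis) for the 49 lysosomal genes, coloured by role. The most abundant genes on the right, Psap, Ctsb, Ctsd, Ctsz and Cd68, lie below 0, and the 5 genes that rose lie in the left and middle part of the plot.

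Other genes of the pathway, none of them among the 49, were read from the same fit. Of 27 other lysosomal hydrolases, 16 fell and 1 rose (Hgsnat, named after its value was seen), against 15.2% and 12.6% of all tested genes. With the replicate block 19 fell and 2 rose, against 19.3% and 17% of all tested genes. The median log2 fold change of these hydrolases in the main fit was -0.20. Pld3, a lysosomal nuclease gene, was 1.98-fold lower, from 1323, 1369 and 1171 CPM to 658, 726 and 565 CPM, and Ctsk, for the bone-resorbing cathepsin K, was 1.93-fold lower.

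Other V-ATPase subunits moved in the same direction as the 7 above. Of 13 listed, 11 were tested and 9 fell, against 15.2% of all tested genes. By edgeR, at an unadjusted p under 0.05 or by DESeq2, 0 rose. Atp6v0d2, the V0 subunit d isoform of osteoclasts and macrophages, stood at 312, 296 and 181 CPM untreated and 105, 133 and 55.4 CPM in conditioned medium (log2 fold change -1.42, SE 0.29, adjusted p = 0.0057). Wells 3 were the lowest of both groups, and the fall was wider than that of Atp6v0d1 but less precise. Atp6v1c1 and Atp6v1e1, for V1 subunits C and E, had log2 fold changes of -0.53 and -0.33.

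Of 27 other lysosomal membrane proteins, 9 fell and 6 rose, against 15.2% and 12.6% of all tested genes. With the replicate block 13 fell and 7 rose, against 19.3% and 17% of all tested genes. Mcoln3, a channel gene related to Mcoln1, fell from 80.2, 79.6 and 76.1 CPM to 29.9, 32.4 and 30.6 CPM (log2 fold change -1.34, SE 0.05, adjusted p = 3.89e-07). Mfsd12, a transporter gene, fell 1.72-fold, and Clcn7, the lysosomal chloride-proton exchanger gene, 1.33-fold. The 6 that rose, named after their values were seen, were Mfsd1, Sidt2, Slc36a1, Ctns, Tmem106b and Slc17a5, with log2 fold changes from 0.39 for Mfsd1 to 0.17 for Slc17a5. Ctns encodes the cystine exporter of the lysosome and Slc17a5 its sialic acid exporter. Of 14 genes for delivery of hydrolases, 6 fell with the replicate block, against 19.3% of all tested genes. In the main fit 0 rose, against 12.6% (0 at an unadjusted p under 0.05 and 0 by DESeq2). In the main fit 4 fell, against 15.2% of all tested genes. These included Igf2r, the large mannose 6-phosphate receptor gene, which went from 435, 420 and 385 CPM to 296, 307 and 286 CPM, the sorting adaptor gene Gga2 (log2 fold change -0.33), and Gnptab (-0.28), whose product makes the mannose 6-phosphate tag. The other of the 4 was M6pr, the small receptor gene.

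Of 15 genes around Tfeb and its control by mTORC1 at the lysosome, 5 fell and 3 rose. Of all tested genes 15.2% fell and 12.6% rose. Rptor, Fnip2, Rragd, Lamtor1 and Lamtor5 fell, and Tfec, Flcn and Zkscan3 rose. The median log2 fold change of the 15 genes was -0.06. Rragd, a Rag GTPase gene, stood at 38.3, 37.3 and 34.8 CPM untreated and 27.0, 27.8 and 20.5 CPM in conditioned medium (log2 fold change -0.55, adjusted p = 0.0038), and Fnip2, a folliculin partner gene, had a log2 fold change of -0.35. Tfec, the fourth gene of the Tfeb family and the macrophage-restricted one, rose from 31.0, 31.5 and 28.6 CPM to 42.6, 44.9 and 37.6 CPM (log2 fold change 0.46, SE 0.07, adjusted p = 0.00142). Within the family, Tfeb and Mitf thus fell, Tfec rose and Tfe3 did not pass.

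**Figure D5:**
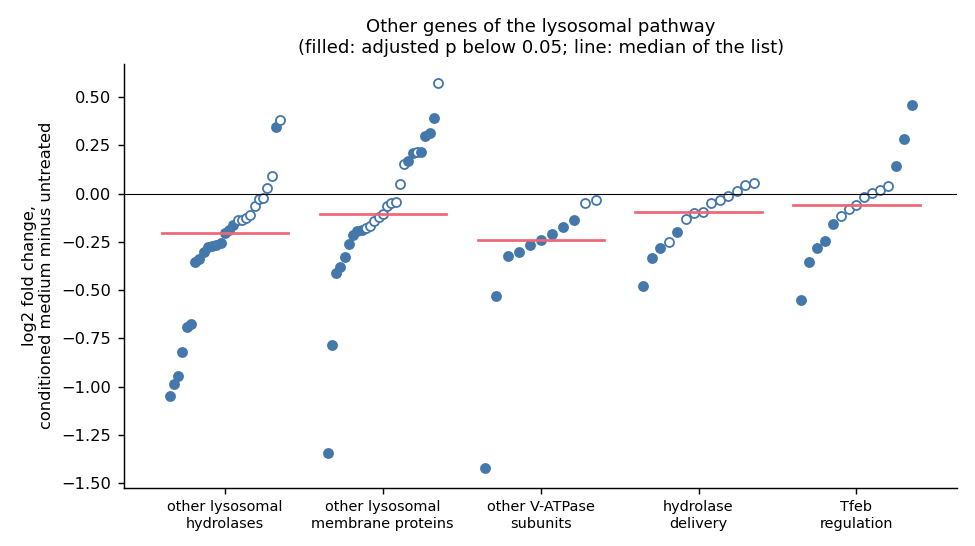
Log2 fold change (y axis, conditioned medium minus untreated) of the tested genes of 5 further lists of the lysosomal pathway, ordered within each list; filled points passed the adjusted threshold of 0.05 and the line is the list's median. The medians run from -0.24 for V-ATPase subunits to -0.06 for Tfeb regulation, and the lowest points of the V-ATPase and membrane protein lists are Atp6v0d2 and Mcoln3.

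Markers of other cell types moved in the same wells. All 6 monocyte markers rose, and their summed level was 267 to 303 CPM untreated and 1330 to 1370 CPM in conditioned medium. F13a1 led that sum, at a mean of 65 CPM untreated and 981 CPM in conditioned medium, while Ly6c2 and Ccr2, which define the type, stood at means of 37.8 and 92.3 CPM untreated and 52.4 and 118 CPM in conditioned medium. Of 7 mast cell and basophil markers 6 were tested, of which 5 fell and 1 rose (sums of 24.1 to 31.4 and 13.6 to 18.9 CPM). Of 6 dendritic cell markers 5 were tested, of which 2 fell (18.3 to 26.1 and 8.95 to 14.4 CPM). Of 10 neutrophil markers 2 fell and 1 rose (621 to 827 and 726 to 823 CPM). The summed level of 5 carcinoma and epithelial markers was 0.794 to 1.20 CPM untreated and 0.585 to 1.41 CPM in conditioned medium, and Epcam and Krt8 were at 0 in the untreated wells and at means of 0.0219 and 0.0115 CPM in conditioned medium. Of 6 lymphocyte markers 3 were tested, of which 1, Ms4a1, fell (4.85 to 5.7 and 3.13 to 3.9 CPM). Summed levels were 13 to 56.4 and 25.7 to 76.7 CPM for stromal markers and at most 0.394 CPM for erythroid markers, with Hbb-bs at 0 in every well. The part of these cell types in the lysosomal changes was not tested.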

How the data were processed

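RNA was measured by sequencing in 6 wells, 3 per group. The authors deposited raw counts, 1 whole number for each gene and well. HISAT2, featureCounts and the build GRCm38 are named in the submitters' processing notes. Tool versions, annotation release, strand setting and treatment of multiply matching reads: not given in the sources used here. The exon length of each gene, another column of the deposited table, was used for levels per kilobase. Symbols came from a table of gene names matched by Ensembl identifier (55154 of 55421 genes; the rest held 0.038% of counts).

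Genes were kept by filterByExpr, scaled by TMM and tested by the quasi-likelihood method of edgeR 4.0.16 under R 4.3.3, with the group alone in the design; glmTreat used 1.5-fold. The standard error (SE) is the log2 fold change over the root of F, and intervals are 95%. DESeq2 1.42.0, RLE or no scaling, no filter, the replicate block, leaving out each well, and leaving out both wells numbered 3 were alternatives. The functions were tested on simulated data. The members, lists and alternatives were chosen with earlier results of these data known. All 49 members are named; of each other list, the 3 largest changes past the threshold with a mean of at least 5 CPM are named, except 1 that is not reported here.

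Wells in both groups are numbered 1 to 3, with no meaning of the number stated. Deviations from the group means over 13853 genes correlated at 0.328, 0.161 and 0.309 between wells of the same number and at -0.289 to 0.0112 otherwise. The numbers may thus pair the wells, but no label says so, and the main fit left them out. Calls, SEs and intervals come from that fit unless another is named, so they ignore any such pairing. The replicate block called 36.3% of all tested genes, against 27.9% in the main fit. Its values are given where they change a call of the 49 genes or a count of a list. Separate animals or cultures are not stated, so the p-values cover only well-to-well spread, possibly technical.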

Additional observations from a re-analysis of the deposited data

How the results depend on the processing

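Of the 32 called lysosomal genes none turned direction under the alternatives run, and leaving out 1 well gave 23 to 28 falls, 4 to 5 rises, a median log2 fold change of -0.222 to -0.154 and, over all genes, 2725 to 3654 changes. The replicate block called 30 falls and 5 rises (5023 changes over all genes, against 3861); it gave 2 sulfatase and 5 lipid falls, and changed no call of these genes other than the gains of Ids, Smpd1 and Gm2a. RLE scaling also gave 2 sulfatase falls. Without scaling beyond the total count there were 8 rises, with 1 among glycosidases, 2 among lipid genes and 2 in the membrane group, and the median moved to -0.14; this raises the median of all genes from 0.013 to 0.07. Without both wells numbered 3, 2 lipid genes rose. Leaving out 1 well gave 0 to 1 rises in the membrane group. Beyond 1.5-fold, glmTreat called 483 genes, among them 2 falls and 0 rises of the 49 (4 and 0 at an unadjusted p under 0.05), with 1 fall of a sulfatase, 1 of a lipid gene and 0 elsewhere; this tests for a larger change by construction.

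Of the genes that did not pass, Man2b1, Manba, Arsa, Galc, Lamp2, Npc1 and Tfe3 changed sign around 0 in at least 1 alternative. The others that did not pass kept their sign in every alternative run. Without scaling the log2 fold change was 0.016 for Man2b1, 0.022 for Lamp2, 0.017 for Npc1 and 0.041 for Tfe3. Manba was at 0 with RLE scaling and with DESeq2. Leaving out 1 well gave -0.033 to 0.053 for Manba, -0.003 to 0.015 for Arsa, -0.033 to 0.089 for Galc, -0.084 to 0 for Npc1 and -0.036 to 0.002 for Tfe3. With 3 wells a group the intervals of genes that did not pass reached down to -0.363 (Gm2a) and up to 0.299 (Lgmn), so a missed threshold does not show that a level stayed the same.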
